A study of Rattus norvegicus with 18 samples.

Results

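The comparison set 3 arrays of rat inner medullary collecting duct cells challenged at 600 mosmol/kg together with cyclosporin A against 3 arrays of the same challenge without the drug. These 6 arrays were chosen by their titles, out of 18 arrays in 6 groups of 3. All cells of the 6 arrays were primary cultures from the renal inner medulla, kept at 300 mosmol/kg and then held for 24 h at 600 mosmol/kg. The first group also received 5 µM cyclosporin A for 24 h, and the second did not. Cells left at 300 mosmol/kg served as background. The remaining groups were kept at 600 mosmol/kg. They were left there, or held for 24 h at 900 mosmol/kg without or with 5 µM cyclosporin A. These groups entered the fit for the shared spread and gave the comparison at the 900 challenge. The labels do not say whether the undrugged cells received a vehicle, and none of the 6 groups combines the drug with an unchanged osmolality, so the drug was seen here only on top of an osmotic step. Whether replicate arrays stand for different rats or dishes is not stated either, so each p-value is set against array-to-array scatter that may be only technical.

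Cyclosporin A is an immunosuppressant that binds cyclophilins, a family of peptidyl-prolyl isomerases. The complex of the drug with the cytosolic cyclophilin A blocks calcineurin, the calcium-dependent phosphatase that lets NFAT transcription factors enter the nucleus, and RCAN1 is both a regulator of calcineurin and a classical NFAT target. Cyclophilin B is a second binding partner and lies in the endoplasmic reticulum, where secreted and membrane proteins are folded. In the kidney the drug is known for its toxicity to vessels and tubules. Cells of the inner medulla live in a strongly hyperosmotic interstitium and adapt by NFAT5-driven uptake and synthesis of organic osmolytes.

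Each array gave a deposited log-scale value for 28328 features, of which 15295 carried exactly 1 gene symbol. The base of the log was not given, so levels and differences are in log units. For base 2, a difference of 1 log unit would mean 2-fold, and for natural logs 2.72-fold. The array medians of the series lay between 3.56 and 3.65 log units, and the 6 arrays had lower quartiles of 2.57 to 2.70. Correlations between arrays were 0.984 to 0.986 within the 2 groups and 0.983 to 0.986 between them. In a principal component analysis of the 6 arrays, replicate 2 with the drug lay at 28.5 on the second component (21.5% of the variance), where the other 5 arrays lay between -13.9 and 4.7. Counts without this array are given with the counts below. The epithelial label held for part of the marker genes. Epcam, an epithelial adhesion molecule, averaged 7.94 log units with the drug and 7.99 without it, and Cdh16, the kidney-specific cadherin, averaged 7.54 with the drug and 7.70 without it. Aqp2, the vasopressin-regulated water channel that defines principal cells, averaged 1.85 log units with the drug and 2.28 without it, under the lower quartile of the arrays. Vim, an intermediate filament gene of mesenchymal cells, averaged 8.08 log units in both groups. Col1a1, a chain of the collagen made by fibroblasts, averaged 6.83 log units with the drug and 6.53 without it. The cells these transcripts came from were not tested. In such bulk RNA, fewer cells of a type and less RNA per cell cannot be told apart.

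With cyclosporin A, 116 features passed an adjusted p of 0.05 in limma, 65 of them higher and 51 lower than in the 600 challenge without the drug. This is 0.409% of the 28328 features tested. The genes that rose included enzymes of sterol and fatty acid synthesis, endoplasmic reticulum chaperones and protein-translocation subunits, and genes of perivascular stromal cells such as Pdgfrb and Kcnj8. Those that fell included the collecting duct transcription factor Gata3, the epithelial tetraspanin Tspan1, the chemokine Cxcl11 and the oxidase subunit Noxo1. The differences were small: their median size over the 116 features was 0.42 log units, and 36 features reached 0.5. The median difference over all features was 0.00 log units, with quartiles of -0.08 and 0.09. At an unadjusted p under 0.05 the count was 2406 features, which is 8.49% of those tested.

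The count of 116 rested on the spread shared by all 18 arrays. A fit on the 6 arrays alone called 0 features (2170 at an unadjusted p under 0.05, smallest adjusted p = 0.0637). Within the full fit, leaving out replicate 1, 2 or 3 of the group with the drug gave 39, 62 and 51 calls, and leaving out replicate 1, 2 or 3 of the undrugged group gave 53, 51 and 67. All 116 differences kept their sign in each of these fits. On the 6 arrays alone the group means are unchanged, so no sign could change there. Where the 2 groups do not overlap, leaving out 1 array cannot change the sign either.

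**Figure D1:**
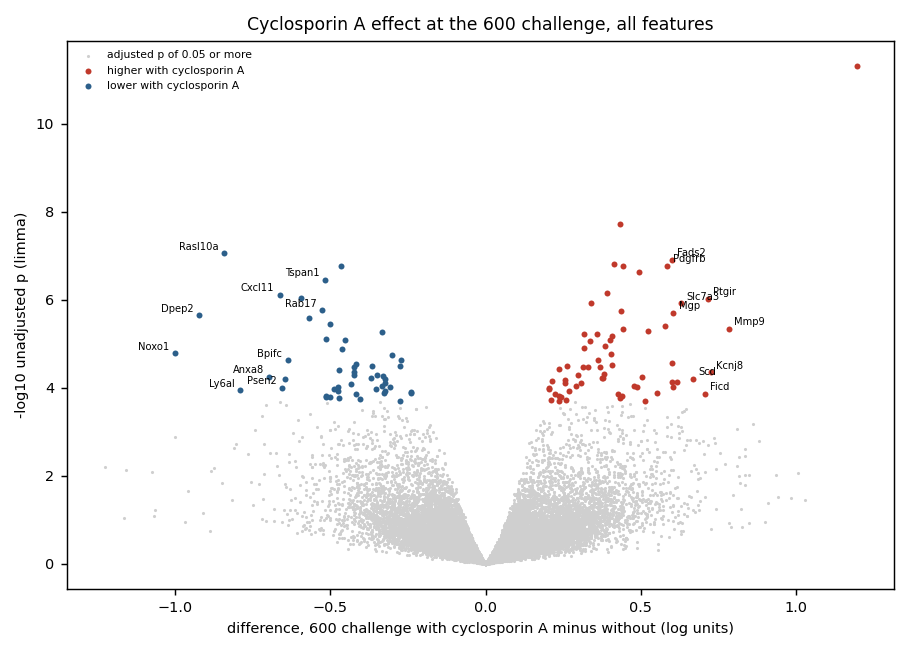
Each point is 1 of the 28328 features, with the difference of the 600 challenge with cyclosporin A minus the 600 challenge without it (log units) on the x axis and -log10 of the unadjusted limma p on the y axis. Red points are the 65 features that were higher and blue points the 51 that were lower with the drug at an adjusted p under 0.05, and some of the named genes are labelled. The isolated red point at the upper right, at 1.20 log units, is a feature without a gene symbol.

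The feature with the largest rise and the smallest p, probe set 10797566, had no gene in the annotation used here. It read 5.83, 5.81 and 5.87 log units on the arrays with cyclosporin A, against 4.59, 4.75 and 4.58 on the undrugged arrays. The difference was 1.20 ± 0.06 (SE, limma, adjusted p = 1.36e-07, n = 3 each). The 2 groups lay far apart relative to their own spread, and the level with the drug approached that of the 300 mosmol/kg culture, 6.12 ± 0.06 (SD, n = 3). Of the 116 features, 96 had a single gene symbol, and the other 20 were split evenly, 10 higher and 10 lower.

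Several sterol synthesis genes rose with the drug. The sterol list, like all lists here, was chosen with earlier results of these data known. Sterol enzymes turn acetyl units into cholesterol through mevalonate, squalene and lanosterol, and most of them are controlled together by SREBP transcription factors, which INSIG1 holds in the endoplasmic reticulum when sterols are plentiful. Of 22 measured members of the sterol list, 7 rose and 0 fell, where 0.229% of all features rose. Of the 14499 symbols, taken with 1 feature each as in the lists, 54 rose. The members had a median difference of 0.24 log units, against 0.00 for all features, and 21 of the 22 differences were positive. Stard4, a sterol carrier, was the exception at -0.26 (adjusted p = 0.926), with a wide spread among its undrugged arrays. In 16 of the 22 genes every array with the drug lay above every undrugged array, and in 0 every array lay below. In either direction, the groups did not overlap in 13.2% of all features and in 15.3% of the symbols.

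Along the pathway, Fdps, which makes farnesyl pyrophosphate, was 7.11, 7.19 and 7.15 log units with cyclosporin A, against 6.85, 6.86 and 6.85 without it (difference 0.30 ± 0.05 SE, adjusted p = 0.0242). Fdft1, squalene synthase, was 6.55, 6.56 and 6.45 with the drug, against 6.11, 6.15 and 6.08 (0.41 ± 0.06, adjusted p = 0.00638). Sqle, the squalene epoxidase, was 6.62, 6.47 and 6.59 with the drug, against 6.29, 6.25 and 6.15 (0.33 ± 0.05, adjusted p = 0.0182). In each of these 3 genes the lowest array with the drug exceeded the highest without it. Cyp51, which demethylates lanosterol, was the most evenly shifted, at 7.15, 7.14 and 7.15 with the drug against 6.77, 6.76 and 6.74 (0.39 ± 0.05, adjusted p = 0.00181). The later enzymes Msmo1 and Sc5d, a methylsterol oxidase and a sterol desaturase, rose by 0.26 and 0.32 log units (adjusted p = 0.0263 and 0.00984), again without overlap. Insig1 was measured by 2 features, and both rose. The brighter one was 6.77, 6.63 and 6.84 with the drug, against 6.44, 6.28 and 6.41 (0.37 ± 0.06, adjusted p = 0.0182), and the other gained 0.58 ± 0.08 (adjusted p = 0.00499). The number of sterol genes that rose was 2 without replicate 1 and 3 without replicate 3 of the drug group, and 3 without replicate 2 and 4 without replicate 3 of the undrugged group.

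Of 15 measured members of the fatty acid list, 3 rose and 0 fell, where 54 of the 14499 symbols rose. The members had a median difference of 0.19 log units and 13 positive differences. Of them, 9 were higher without overlap, against 15.3% of the symbols without overlap in either direction. The 3 that rose were all desaturases, which put double bonds into fatty acid chains. Fads2, the delta-6 desaturase of polyunsaturated fatty acids, was 5.76, 5.71 and 5.75 log units with cyclosporin A, against 5.14, 5.20 and 5.09 without it (0.60 ± 0.06, adjusted p = 0.000625). Scd, stearoyl-CoA desaturase, was 4.05, 4.02 and 3.80 with the drug, against 3.28, 3.44 and 3.14 (0.67 ± 0.12, adjusted p = 0.026). The more abundant Scd2 rose by 0.34 ± 0.04 (adjusted p = 0.00212). For all 3 desaturases the groups were separate, which the naming rule required of Fads2 and Scd. The separation was widest relative to the spread for Fads2. Fads1, the delta-5 desaturase, differed by 0.62 ± 0.15 with an adjusted p of 0.123, and Fasn, fatty acid synthase, by 0.32 ± 0.07 with an adjusted p of 0.0611. Lpcat3, which places polyunsaturated chains into phospholipids, was the only 1 of 11 liver X receptor targets to pass, at 0.24 ± 0.04 (adjusted p = 0.0202). Angptl4, an inhibitor of lipoprotein lipase, was 5.41, 5.45 and 5.40 with the drug, against 4.92, 4.76 and 4.78 (0.60 ± 0.11, adjusted p = 0.0287), and both groups exceeded the 300 mosmol/kg culture, at 4.21 ± 0.14 (SD, n = 3).

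**Figure D2:**
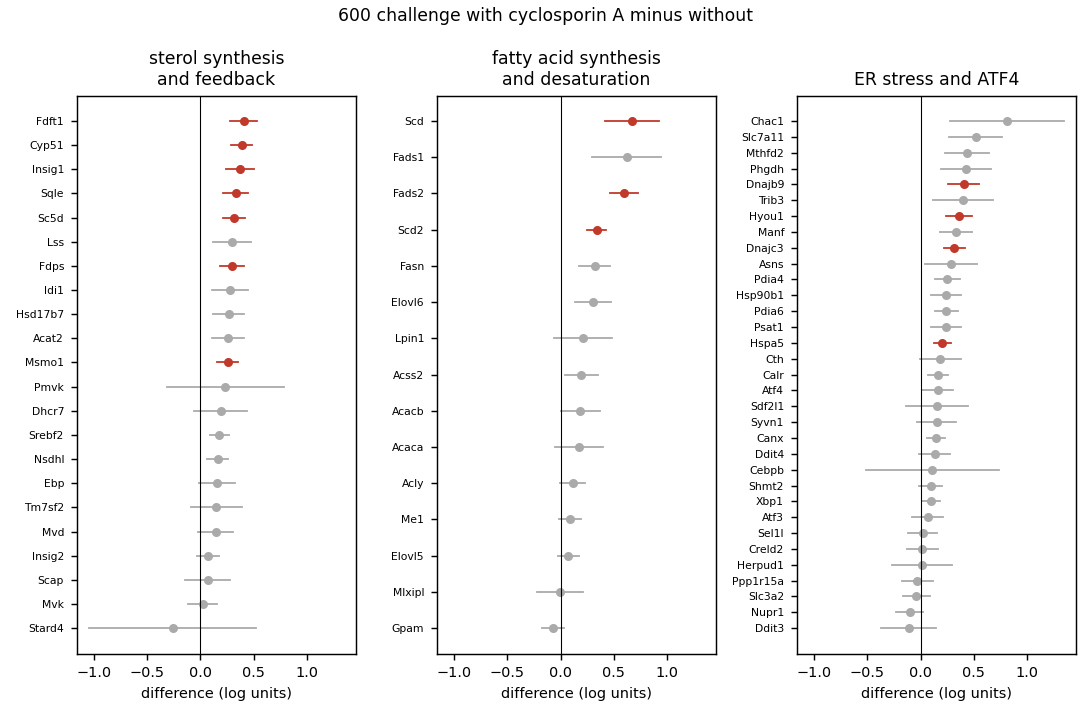
Differences of the 600 challenge with cyclosporin A minus the 600 challenge without it (x axis, log units) for the measured members of the sterol, fatty acid, and stress and ATF4 lists, 1 row per gene and 1 panel per list. Bars are 95% confidence intervals from limma red points pass an adjusted p of 0.05 and grey points do not. Most members lie to the right of 0, also where the single gene does not pass, as for Fasn and Fads1.

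A second group of rising genes belongs to the endoplasmic reticulum. When unfolded proteins build up there, the sensors IRE1, ATF6 and PERK raise chaperones, translocation and degradation components, and PERK acts through ATF4 and the death-associated factor CHOP, encoded by Ddit3. Of 33 measured members of the stress and ATF4 list, 4 rose and 0 fell, where 54 of the 14499 symbols rose. The median difference was 0.16 log units, and 29 members were positive. The groups did not overlap in 21 genes that were higher and in 1 that was lower, against 15.3% of the symbols in either direction. All 4 that rose encode chaperones or their partners. Hspa5, the luminal chaperone BiP, was 8.28, 8.23 and 8.25 log units with the drug, against 8.07, 8.02 and 8.06 without it (0.21 ± 0.04, adjusted p = 0.0333). Dnajb9, a BiP cochaperone, was 6.05, 6.17 and 5.99 with the drug, against 5.71, 5.67 and 5.61 (0.41 ± 0.07, adjusted p = 0.0182). Dnajc3, another cochaperone, rose by 0.32 ± 0.05 (adjusted p = 0.006) and Hyou1, a nucleotide exchange factor for BiP, by 0.36 ± 0.06 (adjusted p = 0.0158). These 4 shifts were small but larger than the spread among arrays, with no overlap in any of the 4 genes. Ddit3 itself did not pass, at -0.11 ± 0.12 (adjusted p = 0.893), and neither did Trib3, a pseudokinase induced through CHOP, at 0.40 ± 0.13 (adjusted p = 0.315). Chac1, a glutathione-degrading ATF4 target, had the largest difference of the list, 0.81 ± 0.25, at a low level and with an adjusted p of 0.267. The number of stress-list genes that rose was 1 without replicate 1 and 1 without replicate 2 of the drug group, and 2 without replicate 2 and 2 without replicate 3 of the undrugged group.

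Ficd, the enzyme that attaches AMP to BiP and removes it, had the largest rise among endoplasmic reticulum genes that passed. It was 4.20, 4.44 and 3.98 log units with cyclosporin A, against 3.66, 3.60 and 3.25 without it (0.71 ± 0.14, adjusted p = 0.039). The arrays of both groups scattered, but the 2 ranges stayed apart, as the naming rule requires. The lists of protein entry and of disulphide formation were drawn up after values had been seen. Over the 14499 symbols, 54 rose and 15.3% did not overlap in either direction. Of 29 measured genes of translocation and N-glycosylation, 7 rose and 0 fell (median 0.14 log units, 19 higher without overlap). They were Serp1, a translocon-associated stress protein (0.39), Rpn1, an oligosaccharyltransferase subunit (0.34), Sec11c of the signal peptidase (0.31), the channel subunits Sec61a1 (0.26) and Sec61b (0.26), Sec63 (0.24), and Ssr3 of the translocon-associated protein complex (0.23). Of 10 measured disulphide isomerases 2 rose, Pdia5 by 0.40 ± 0.06 (adjusted p = 0.0123) and P4hb, which also serves prolyl hydroxylase, by 0.21 ± 0.04 (adjusted p = 0.0488). Both counts fell when arrays were left out. In the drug group, leaving out replicate 1, 2 or 3 gave 1, 4 and 1 translocation genes, and in the undrugged group 2, 3 and 2. For the disulphide isomerases the same 6 fits gave 0, 1, 0, 0, 1 and 1.

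Promoters of the endoplasmic reticulum genes that rose are shown because 3 of them hold exact copies of elements known from the unfolded protein response. The windows run from 250 bases before to 50 bases after the annotated start, from RefSeq on GRCr8, with matches in capitals. Hspa5 lies at chr3:38452766-38453065, Dnajc3 at chr15:102432417-102432716 and Hyou1 at chr8:53602632-53602931, all on the plus strand.
Hspa5: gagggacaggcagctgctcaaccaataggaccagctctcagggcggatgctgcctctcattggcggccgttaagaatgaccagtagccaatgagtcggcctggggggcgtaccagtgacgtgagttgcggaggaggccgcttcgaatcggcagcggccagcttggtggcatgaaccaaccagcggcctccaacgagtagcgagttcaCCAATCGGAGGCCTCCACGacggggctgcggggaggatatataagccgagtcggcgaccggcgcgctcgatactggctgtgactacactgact
Dnajc3: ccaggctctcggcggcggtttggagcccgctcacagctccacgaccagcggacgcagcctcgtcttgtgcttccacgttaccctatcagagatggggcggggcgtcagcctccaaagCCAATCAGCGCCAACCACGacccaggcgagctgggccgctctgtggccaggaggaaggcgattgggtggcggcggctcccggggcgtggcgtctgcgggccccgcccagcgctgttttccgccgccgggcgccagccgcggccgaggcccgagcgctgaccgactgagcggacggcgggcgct
Hyou1: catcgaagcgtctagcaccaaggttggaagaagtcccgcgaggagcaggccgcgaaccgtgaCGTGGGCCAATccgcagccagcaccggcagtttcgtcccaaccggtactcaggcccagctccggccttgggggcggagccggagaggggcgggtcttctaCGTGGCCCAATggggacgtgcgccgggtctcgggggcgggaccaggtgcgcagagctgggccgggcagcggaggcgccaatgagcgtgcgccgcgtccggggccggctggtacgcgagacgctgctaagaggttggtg
The capitals in Hspa5 and Dnajc3 mark the endoplasmic reticulum stress element. In Hyou1 they mark 2 copies, on the minus strand, of the second type of this element. The Hyou1 window also holds 1 copy of the unfolded protein response element, TGACGTGG, which begins in the lower-case letters just before the first of these copies and overlaps it. Of 13 endoplasmic reticulum genes that rose, 12 had a promoter in the RefSeq table. The first element was in 2 of these, the second in 1 and the third in 1, against 0.0657%, 0.0508% and 0.595% of the 33469 promoters of the same length. A second Hyou1 start had a window with none of the motifs. The sterol regulatory element, searched as TCACNCCAC, was in 0 of the 8 lipid genes with a promoter, against 1.12% of all promoters, and the cyclic AMP response element TGACGTCA was in 0 of both sets, against 1.83%. Both strands were searched, the motifs were picked after the gene values were known, and a match describes the letters only.

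Genes of pericytes and other perivascular stromal cells formed another group, listed after values had been seen. Pdgfrb, the receptor that recruits pericytes to vessels, was 5.85, 6.04 and 5.87 log units with cyclosporin A, against 5.34, 5.43 and 5.24 without it (0.59 ± 0.06, adjusted p = 0.000625). Kcnj8, the pore of an ATP-sensitive potassium channel of mural cells, was 5.01, 5.13 and 5.03 with the drug, against 4.04, 4.47 and 4.48 (0.73 ± 0.12, adjusted p = 0.0221). Cd248, the stromal glycoprotein endosialin, was 3.82, 3.87 and 3.93 with the drug, against 3.07, 3.52 and 3.38 (0.55 ± 0.11, adjusted p = 0.0387). The 3 genes were separated between groups, as the naming rule requires. In both groups they lay under the 300 mosmol/kg culture, where they averaged 6.32, 5.35 and 5.23. Gucy1b1, a subunit of the nitric oxide receptor guanylate cyclase, rose by 0.43 ± 0.09 (adjusted p = 0.0451). These were 4 of 16 measured members, with 0 lower and a median of 0.32 log units, where 54 of the 14499 symbols rose. Of the 16, 10 were higher without overlap, against 15.3% of the symbols without overlap in either direction. Notch3, a receptor of mural cells, was at -0.07 (adjusted p = 0.957) and Rgs5, a pericyte regulator of G-protein signalling, at 0.15 (adjusted p = 0.503). The count was 1 without any single replicate of the drug group, and 1 without replicate 1 and 2 without replicate 3 of the undrugged group.

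Other stromal and vascular markers did not all follow. The mean level of the pericyte list was 4.04 to 4.21 log units on the arrays with the drug, 3.79 to 3.87 on the undrugged arrays and 4.85 to 4.97 in the 300 mosmol/kg culture. The fibroblast list of 18 genes averaged 4.25 to 4.31 with the drug and 4.15 to 4.18 without it, with 1 member that rose, Pdgfrb. The smooth muscle list of 14 genes averaged 4.72 to 4.91 with the drug and 4.80 to 4.87 without it, with 0 calls (3 at an unadjusted p under 0.05). The endothelial list of 15 genes averaged 4.40 to 4.43 with the drug and 4.53 to 4.59 without it, and Egfl7, a secreted endothelial factor, fell by 0.50 ± 0.07 (adjusted p = 0.00456). The leukocyte list of 18 genes averaged 4.08 to 4.30 with the drug and 4.21 to 4.36 without it, with 0 calls (5 at an unadjusted p under 0.05). No member of these lists was at 0 on any array. The part of shifts in cell makeup in any result here was not tested.

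**Figure D3:**
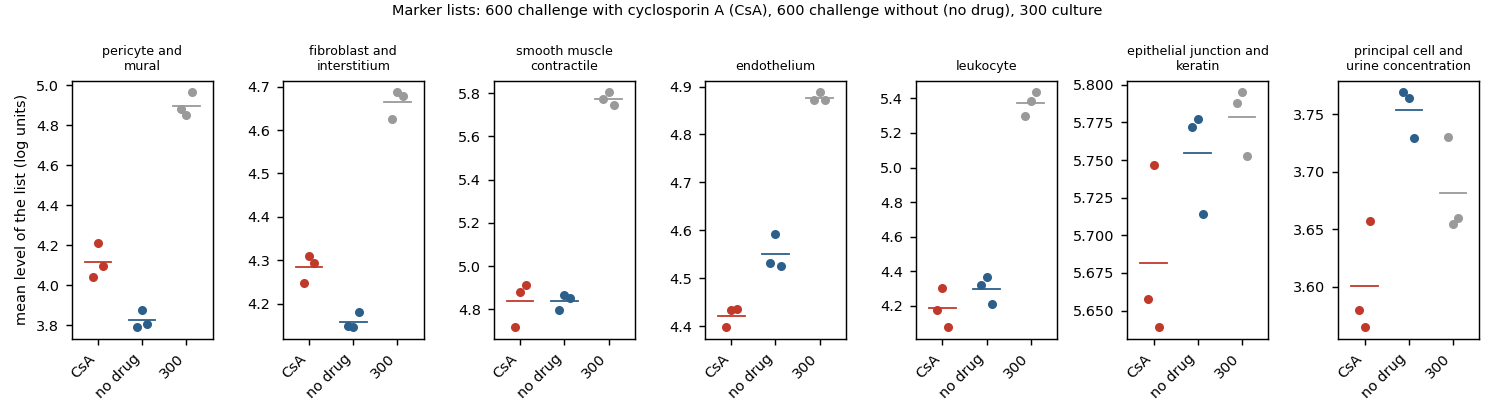
Mean level (log units) of each cell type marker list on every array of the 600 challenge with cyclosporin A, the 600 challenge without it and the 300 mosmol/kg culture, 1 point per array and 1 panel per list, each panel with its own axis. The pericyte list is higher with the drug than without it and highest in the 300 mosmol/kg culture, and the principal cell list is lower with the drug. The pericyte list was drawn up after values of this comparison had been seen. The other lists shown were chosen before that, but with earlier results of these data known.

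Several further rises concern vessel tone, matrix and transport. Ptgir, the prostacyclin receptor, which relaxes smooth muscle through cyclic AMP, was 4.02, 4.23 and 4.08 log units with cyclosporin A, against 3.37, 3.54 and 3.28 without it (0.72 ± 0.09, adjusted p = 0.00192). Mmp9, the gelatinase that cleaves basement membrane collagen, was 6.23, 6.43 and 6.40 with the drug, against 5.55, 5.68 and 5.47 (0.78 ± 0.11, adjusted p = 0.00538). Mmp9 had the largest rise of any gene with a symbol that passed, and its level with the drug exceeded that of the 300 mosmol/kg culture, 6.09 ± 0.09 (SD, n = 3). Mgp, an inhibitor of calcification, was 6.74, 6.72 and 6.65 with the drug, against 6.09, 6.28 and 5.93 (0.60 ± 0.08, adjusted p = 0.00297). Slc7a3, a carrier of cationic amino acids, was 4.17, 4.28 and 4.23 with the drug, against 3.58, 3.58 and 3.65 (0.63 ± 0.08, adjusted p = 0.00212). The groups were separate for all 4, as the naming rule requires. Jph2, which joins endoplasmic reticulum and plasma membrane, rose by 0.52 ± 0.07 (adjusted p = 0.00571). Nipal4, a putative magnesium transporter, rose by 0.60 ± 0.11 (adjusted p = 0.033) and Kif21b, a kinesin motor, by 0.60 ± 0.10 (adjusted p = 0.0173), both at low levels, and Kif21b under the lower quartile of the undrugged arrays. Outside the naming rule, and picked after values were seen, Wnt5a, a secreted Wnt ligand, was 6.79, 6.87 and 6.82 with the drug, against 6.44, 6.41 and 6.39 (0.42 ± 0.04, adjusted p = 0.000625). Inhba, a subunit of activin, rose by 0.38 ± 0.07 (adjusted p = 0.0257).

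**Figure D4:**
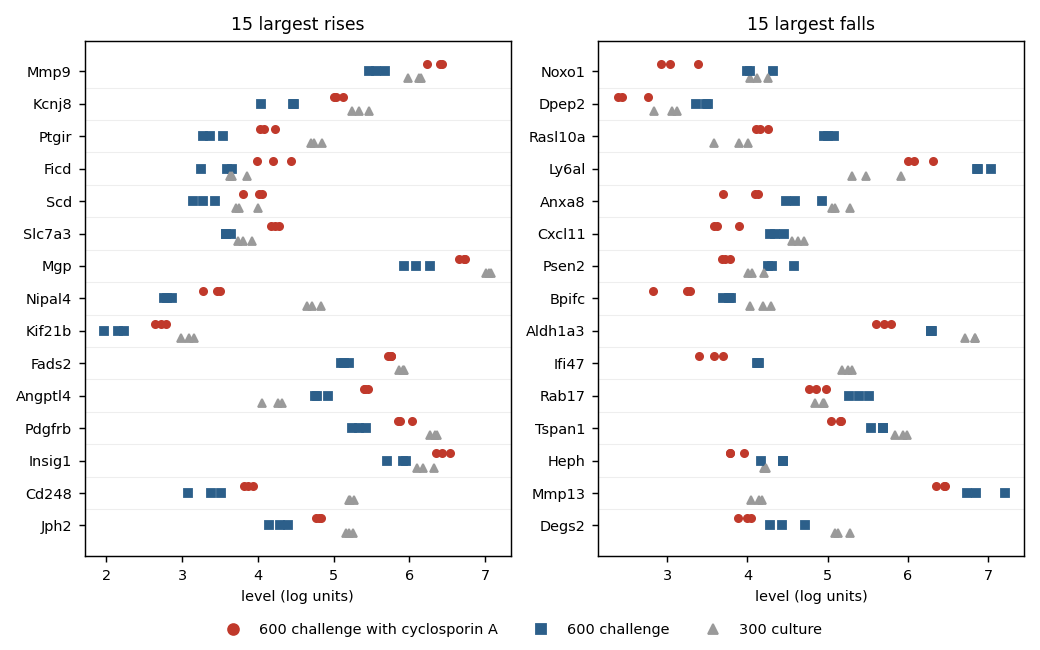
Level (x axis, log units) of the 15 genes with the largest rises (left panel) and the 15 with the largest falls (right panel) on each array of the 600 challenge with cyclosporin A, the 600 challenge without it and the 300 mosmol/kg culture, 1 row per gene and 1 point per array. The 2 challenged groups are separate in every row, as the naming rule requires, and for some genes, such as Pdgfrb, the level with the drug lies between the undrugged challenge and the 300 mosmol/kg culture.

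Genes of the collecting duct epithelium were among those that fell. Gata3, a transcription factor of the collecting duct lineage, was 5.52, 5.66 and 5.55 log units with cyclosporin A, against 6.05, 6.10 and 5.97 without it (-0.47 ± 0.05, adjusted p = 0.000625). Tspan1, a tetraspanin of epithelial membranes, was 5.17, 5.04 and 5.16 with the drug, against 5.69, 5.69 and 5.54 (-0.52 ± 0.06, adjusted p = 0.000988). Rab17, a GTPase of polarised membrane traffic, was 4.76, 4.85 and 4.98 with the drug, against 5.52, 5.38 and 5.27 (-0.53 ± 0.07, adjusted p = 0.00281). None of the 3 overlapped between groups, which the naming rule required of Tspan1 and Rab17. Gata3 and Tspan1 were the 2 that fell of 25 measured genes on the principal cell list, where 0 rose, the median was -0.12 log units and 7 were lower without overlap. Over all features, 0.180% fell, and over the 14499 symbols the groups did not overlap in 15.3%, in either direction. The list averaged 3.57 to 3.66 log units with the drug and 3.73 to 3.77 without it. Fxyd4, a collecting duct regulator of the sodium pump, was at -0.64 ± 0.13 (adjusted p = 0.0568) and Aqp2 at -0.43 ± 0.14 (adjusted p = 0.323), both from low levels. On the epithelial junction and keratin list, Krt19 fell by 0.28 on the log scale (SE 0.05, adjusted p = 0.0182), and the other 22 measured genes did not pass. Of the 23 differences on that list 5 were positive, and without overlap 8 genes were lower and 1 higher. The list averaged 5.64 to 5.75 with the drug and 5.71 to 5.78 without it.

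The largest fall was in Noxo1, the organiser subunit of the superoxide-producing NADPH oxidase NOX1. It was 3.03, 3.38 and 2.92 log units with cyclosporin A, against 4.31, 3.99 and 4.03 without it (-1.0 ± 0.16, adjusted p = 0.0123). Dpep2, a membrane dipeptidase, was 2.76, 2.44 and 2.39 with the drug, against 3.49, 3.50 and 3.36 (-0.92 ± 0.12, adjusted p = 0.00323). Both genes were separate between groups, as the naming rule requires, and Dpep2 lay under the array medians in both. Rasl10a, a small Ras-like GTPase, was 4.10, 4.16 and 4.25 with the drug, against 4.95, 5.00 and 5.08 (-0.84 ± 0.08, adjusted p = 0.000625). Ly6al, a Ly6-family member, was at 6.07, 6.003 and 6.31 with the drug, against 7.03, 6.88 and 6.85 (-0.79 ± 0.15, adjusted p = 0.0356). Rasl10a and Ly6al both stood higher in the undrugged challenge than in the 300 mosmol/kg culture, at 3.83 and 5.57, and the drug group lay between. Mmp13, collagenase 3, did likewise, at 6.45, 6.35 and 6.46 with the drug, against 6.84, 6.74 and 7.21 (-0.51 ± 0.10, adjusted p = 0.0413) and 4.12 in the culture. Mmp9 and Mmp13, both matrix metalloproteinases, thus changed in opposite directions, and they were the only 2 of 25 measured matrix and fibrosis genes that passed. Outside that list, and picked after values were seen, Mmp12, another matrix metalloproteinase, rose by 0.51 ± 0.10 (adjusted p = 0.0496). Col7a1, a collagen chain also outside the list, rose by 0.44 ± 0.06 (adjusted p = 0.00538).

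Inflammatory genes fell in a few cases. Cxcl11, a chemokine that calls T cells through CXCR3, was 3.59, 3.89 and 3.62 log units with cyclosporin A, against 4.28, 4.46 and 4.34 without it (-0.66 ± 0.08, adjusted p = 0.00181). Il1a, the alarmin interleukin 1 alpha, was 6.18, 6.13 and 6.08 with the drug, against 6.52, 6.51 and 6.61 (-0.42 ± 0.08, adjusted p = 0.039). Both were separate between groups, which the naming rule required of Cxcl11. They were the 2 that fell of 31 measured inflammation genes, where 0.180% of all features fell. Of the 31, 0 rose, and the median was -0.04 log units. The count was 1 when any single array of the 6 was left out. Ifi47, an interferon-induced GTPase, was 3.70, 3.40 and 3.58 with the drug, against 4.13, 4.12 and 4.14 (-0.57 ± 0.07, adjusted p = 0.00356), while 0 of 23 measured genes of the interferon list passed (4 at an unadjusted p under 0.05). Aldh1a3, which makes retinoic acid, was 5.70, 5.79 and 5.60 with the drug, against 6.29 on each of the 3 undrugged arrays (-0.59 ± 0.07, adjusted p = 0.00192). The remaining named genes that fell were Anxa8, a phospholipid-binding annexin (-0.70), Psen2, a catalytic subunit of gamma-secretase (-0.66), Bpifc, of the lipid-binding BPI fold family (-0.64), Heph, a copper-dependent ferroxidase (-0.51), and Degs2, a sphingolipid hydroxylase (-0.50). Their adjusted p-values in limma lay between 0.0158 and 0.0438. Picked after values were seen, Cxcr4, the receptor of the chemokine CXCL12, was 4.21, 4.19 and 4.17 with the drug, against 4.66, 4.67 and 4.67 (-0.47 ± 0.08, adjusted p = 0.0202). On other lists, S100g, a calcium-binding protein, fell by 0.49 (adjusted p = 0.0348) at a low level, and Serpinb1a, an inhibitor of neutrophil proteases, fell by 0.33 (adjusted p = 0.00571).

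The drug's own targets and the osmotic programme gave 0 calls. Of 16 measured calcineurin, NFAT and RCAN genes none passed, the median was -0.01 log units, and 1 gene was below an unadjusted p of 0.05. Their differences ran from -0.52 to 0.19. In 3 genes the groups did not overlap, 1 higher and 2 lower with the drug, against 15.3% of the symbols in either direction. Rcan1 was 4.91, 5.10 and 5.22 log units with cyclosporin A, against 5.23, 5.01 and 5.15 without it, a difference of -0.05 with a 95% interval of -0.22 to 0.11. Ppp3ca, a catalytic subunit of calcineurin, differed by 0.02 (-0.07 to 0.12). The groups overlapped in both genes. Of 13 measured cyclophilins none passed, and 1 was below an unadjusted p of 0.05. Ppia, cyclophilin A, differed by 0.02 ± 0.04, and Ppib, the endoplasmic reticulum cyclophilin B, was 7.54, 7.57 and 7.48 with the drug, against 7.39, 7.35 and 7.39 (0.15 ± 0.04, adjusted p = 0.208). Ppib was thus separate between groups but short of the threshold over all features.

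Osmolyte genes differed little between the 2 groups, mostly toward lower values with the drug. Of 8 measured, none passed and 1 was below an unadjusted p of 0.05, with a median of -0.04 log units. Only 2 differences were positive. Akr1b1 and Slc5a3 were lower without overlap, and 0 genes were higher without overlap, against 15.3% of the symbols without overlap in either direction. Akr1b1, the aldose reductase that makes sorbitol, was 8.81, 8.86 and 8.86 with the drug, against 8.90, 8.89 and 8.88 without it, and 7.19 ± 0.15 (SD, n = 3) in the 300 mosmol/kg culture. Its difference between the challenged groups was -0.05, with a 95% interval of -0.18 to 0.08. Slc5a3, the inositol carrier, was 5.43, 5.57 and 5.41 with the drug, against 5.69, 5.67 and 5.65 (-0.20 ± 0.06, adjusted p = 0.227). Slc6a6, the taurine carrier, differed by 0.01 ± 0.08, and Nfat5 by -0.05 with an interval of -0.31 to 0.20. Each interval bounds the drug's effect at this number of arrays and does not show that the groups were equal. Heat shock genes (22 measured), ion pumps (18), mitochondrial respiration (22), NRF2 targets (22), p53 targets (15), apoptosis (22) and tubule injury genes (17) also gave 0 calls in limma, with medians between -0.04 and 0.06 log units and 0 to 5 members per list at an unadjusted p under 0.05. The mitochondrial respiration list had 3 positive differences of 22, with a median of -0.03. The cell cycle list gave 0 calls of 31, with 26 positive differences and a median of 0.06, and 3 members were at an unadjusted p under 0.05. The lists of AP-1, EGF receptor, prostaglandin, hypoxia, drug efflux, lysosome, renin-angiotensin, intercalated cell, proximal tubule and reference genes gave 0 calls as well, with medians between -0.03 and 0.06 log units and 0 to 4 members each at an unadjusted p under 0.05. The MHC class II list of 11 genes also gave 0 calls (4 at an unadjusted p under 0.05), with a median of -0.18 and 2 positive differences, and averaged 3.77 to 3.81 log units with the drug and 3.92 to 3.97 without it. The loop of Henle list of 10 genes gave 0 calls (4 at an unadjusted p under 0.05), with a median of -0.17, and averaged 3.33 to 3.46 with the drug and 3.44 to 3.55 without it.

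The nearest comparison in the series is the drug's effect in cells kept at 600 mosmol/kg and challenged at 900 mosmol/kg, which shares no array with the one above. There 143 features passed, 101 higher and 42 lower, which is 0.505% of those tested. Both comparisons came from 1 fit with 1 spread per feature, so their p-values are not independent. A feature with a small spread passes more easily in both. Of the 65 features that rose at the 600 challenge, 29 also rose at the 900 challenge, which is 44.6% of the 65 and 28.7% of the 101. Of the 51 that fell, 2 also fell, which is 3.92% of the 51 and 4.76% of the 42. The sign was shared by 61 of the 65 and by 37 of the 51, and the median difference at 900 was 0.26 log units for the first set and -0.10 for the second. Across all 28328 features, which are not independent replicates, Pearson's r between the 2 drug effects was 0.05. Of the 116 features, 5 passed the test of the difference between the 2 drug effects, 1 of those that rose and 4 of those that fell.

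All 10 sterol and fatty acid genes that rose at the 600 challenge were positive at 900, by 0.25 to 0.81 log units, and 9 of them passed there. The 10th, Sqle, was at 0.25 (adjusted p = 0.0687). Of the 13 endoplasmic reticulum genes all were positive at 900, by 0.06 to 0.37, and 4 passed. Mmp9 rose by 1.14 (adjusted p = 0.000159) and Ficd by 0.74 (adjusted p = 0.0275) at 900. The 4 pericyte genes were at -0.06 to 0.32 there, and Pdgfrb alone passed (0.32, adjusted p = 0.0358). The lowest limma adjusted p for a difference between the 2 effects was 0.793 for the lipid genes, 0.592 for the endoplasmic reticulum genes and 0.262 for the pericyte genes. A difference between the challenges was thus not shown for any of these genes. Over all 16 measured pericyte members the median was 0.32 log units at 600 and -0.02 at 900, where 1 rose and 1 fell. The medians at 900 were 0.26 for the sterol list, 0.27 for the fatty acid list and 0.22 for the stress and ATF4 list. Differences between list medians were not tested.

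Over all features, 13 passed the test of the difference between the 2 drug effects, or 0.0459%, 2 with a higher value at the 600 challenge and 11 with a lower one. Of the 11, 6 encode chemokines or cytokines. Cxcl11 was -0.66 at the 600 challenge and 0.33 at the 900 challenge, a difference of -0.99 (adjusted p = 0.00342). Il1a passed in both settings in opposite directions, at -0.42 and 0.43, a difference of -0.85 (adjusted p = 0.0155). Aldh1a3 was -0.59 and 0.14 (difference -0.73, adjusted p = 0.016), and Ifi47 was -0.57 and 0.10 (difference -0.67, adjusted p = 0.0453). Unlike these 4 genes, the neutrophil chemokine Cxcl1 read 8.08, 8.05 and 8.04 log units with the drug at the 600 challenge, against 8.08, 8.05 and 8.08 without it, while its effect at 900 was 0.94. Of the 31 measured inflammation genes, 12 rose at 900, where 0.357% of all features rose, and 0 rose at 600, where 0.229% did.

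**Figure D5:**
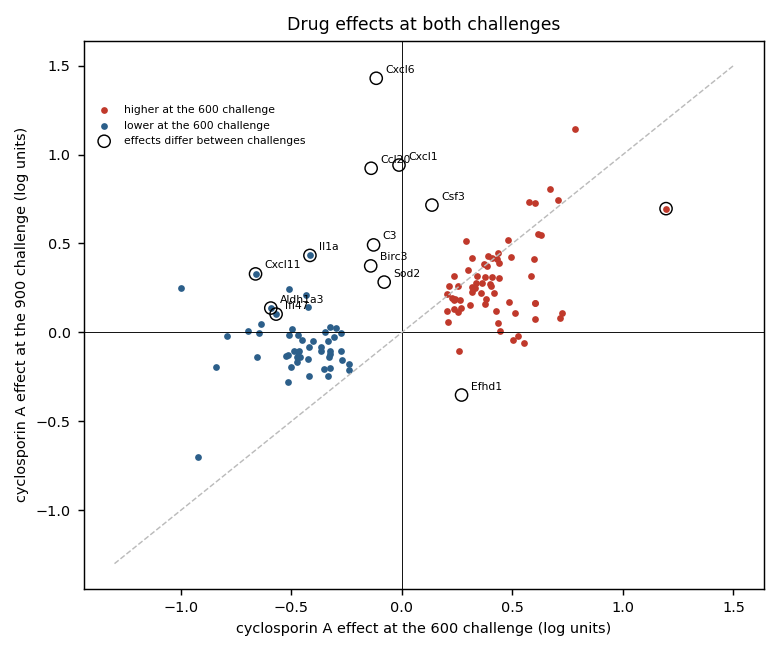
Drug effect at the 600 challenge (x axis) against the drug effect at the 900 challenge (y axis), both in log units and with the drug minus without, for the 116 features called at the 600 challenge (coloured by direction) and the 13 that passed the test of the difference (circled). Of the 65 that rose at 600, 61 lie above 0 on the y axis, and Cxcl11 and Il1a lie at the upper left, lower at 600 and higher at 900.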

How the data were processed

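Total RNA of rat primary inner medullary collecting duct cells was hybridised to Affymetrix whole-transcript arrays, per the labels' protocols. The deposited table holds 1 normalized value per feature and array on a log scale whose base, background correction and normalization are not given in the sources used here, and was used as deposited. Pairwise comparisons were made by the authors in BRB ArrayTools, per the series' design text, without a named test. Groups came from the sample labels. limma 3.58.1 in R 4.3.3 was fitted to all 28328 features on all 18 arrays with 6 group means and no covariate, and p-values were adjusted by Benjamini-Hochberg (threshold 0.05). A run on simulated data, with independent noise per value and known differences planted, checked the code only. It cannot show how far the calls depend on the arrays fitted. Features were named through the platform annotation: 15295 had 1 symbol, 322 several and 12711 none, and 15264 matched the RefSeq gene table of GRCr8.

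Named genes were the 15 largest rises and 15 largest falls that passed without overlap between groups and with 1 symbol (8 per direction for the difference between challenges), plus list members. A listed gene with several features was represented by the one with the highest mean. Members and lists were chosen with earlier results of these data known, and 3 lists (pericyte, translocation, disulphide isomerases) after values of this comparison were seen. The number of arrays limits the precision. Alternatives covered the samples fitted, scaling, dim features, prior, array weights, the replicate block and single arrays left out.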

Additional observations from a re-analysis of the deposited data

Results flagged for a closer look

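The drug's effect at the 600 challenge minus its effect at the 900 challenge passed limma's test of that difference for 13 features. For Efhd1, a mitochondrial calcium-binding protein, it was 0.622 (effects of 0.27 at 600 and -0.35 at 900, adjusted p = 0.0248). The other named genes had lower values at the 600 challenge. The difference was -1.545 for Cxcl6 (-0.12 at 600 and 1.43 at 900, adjusted p = 0.00342) and -1.062 for Ccl20 (-0.14 and 0.92, adjusted p = 0.00299), both chemokines. It was -0.991 for Cxcl11, -0.953 for Cxcl1 (adjusted p = 0.00299), -0.849 for Il1a, -0.73 for Aldh1a3 and -0.672 for Ifi47. For C3, the central complement component, it was -0.62 (-0.13 and 0.49, adjusted p = 0.0155). For Cxcl6, Ccl20, Cxcl1 and C3 the effect at the 600 challenge did not pass, with adjusted p-values of 0.582 to 0.986.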

How the results depend on the processing

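All 116 differences kept their sign under the alternatives tried, apart from 1 feature that the filter on dim features removed. None of the 30 named genes reversed. Several of these fits leave the group means as they were, and leaving out 1 array cannot reverse groups that do not overlap. Such signs were fixed beforehand. Over the lists and alternatives, 52 list medians moved by at least the array-to-array spread of the list. Of the counts of list members that rose or fell, 109 dropped and 10 grew by more than 1.5 times. The number of features that passed depended on the fit. On the 6 arrays alone limma called 0 features, 0 higher and 0 lower (2170 at an unadjusted p under 0.05), and a plain 2-sample test called 2, 1 higher and 1 lower. On the 12 challenge arrays 38 passed (21 and 17), and for the 900 challenge and the difference between challenges 55 and 5. Without dim features 178 passed (99 and 79), with 233 and 27 for the other 2 comparisons. An intensity trend with a robust prior gave 268 (156 and 112), 385 and 43. With 1 of the compared arrays left out the counts were 39 to 67 (22 to 36 higher, 17 to 31 lower), 43 to 76 at the 900 challenge and 4 to 17 for the difference. With 1 of the 6 arrays of the 900 challenge groups left out, 86 to 106 passed at the 600 challenge. The cause of these shifts was not tested. Median centring (91 calls), quantile normalization (122) and array weights (105) stayed within 1.5 times the count. Whether the replicate numbers mark pairs was not settled. Deviations of same-numbered arrays correlated at 0.046, 0.022 and 0.073, and those of differently numbered arrays at -0.077 to 0.03. Not every array correlated best with its own number, and 3 arrays per group cannot exclude a weak pairing. The replicate block gave 91 calls (51 higher, 40 lower), 84 of them shared with the 116. Of 30 named genes, 15 passed in 13 of the 15 alternatives, all but those on the 6 arrays alone: Aldh1a3, Cxcl11, Dpep2, Fads2, Ifi47, Insig1, Jph2, Mgp, Mmp9, Pdgfrb, Ptgir, Rab17, Rasl10a, Slc7a3 and Tspan1. The other 15 passed in 4 to 10.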

Other observations

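Values outside the lists and the naming rule, picked after they were seen, add a few genes that passed with cyclosporin A at the 600 challenge. Slc1a4, a carrier of small neutral amino acids, was 5.39, 5.33 and 5.32 log units with the drug, against 5.02, 4.97 and 4.85 without it (0.40 ± 0.06 SE, limma adjusted p = 0.00707), and Eif4ebp1, a repressor of cap-dependent translation, rose by 0.27 ± 0.05 (adjusted p = 0.0356). Acvrl1, a receptor of the BMP family, rose by 0.50 ± 0.09 (adjusted p = 0.0252) and Ccnd2, the cell cycle cyclin D2, by 0.49 ± 0.09 (adjusted p = 0.033). Gpx1, a peroxide-reducing selenoenzyme, was 5.35, 5.36 and 5.29 with the drug, against 5.67, 5.70 and 5.61 (-0.33 ± 0.06, adjusted p = 0.0252). Cav1, the coat protein of caveolae, was at 6.03, 6.05 and 5.95, against 6.24, 6.26 and 6.24 (-0.24 ± 0.05, adjusted p = 0.0372). In all 6 genes the arrays of the 2 groups did not overlap.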
